A study of Mus musculus with 16 samples.

Results

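Interferon-stimulated effector genes are genes that interferon switches on. Some encode proteins that sense, bind, edit or degrade foreign nucleic acid, and others encode proteins that act in other ways. The set described here holds 39 such genes in mouse dendritic cells. The 39 were taken from a list of gene names; Trim25 stood on it more than once and was counted once. A member was measured by the probe set that the platform's annotation gives to that gene alone, and 37 of the 39 had one. Ifi44 and Ifi47 are not analysed here. All 37 passed the filter on low values that was set for the whole table of 10236 tested genes. Marrow of C57BL/6 mice was cultured in 10 ng/mL of GM-CSF, under which marrow precursors become myeloid cells. The 4 groups were cells raised in medium brought to 450 mOsm/L with added NaCl from day 3 and then given LPS at 10 ng/mL for 6 h, cells raised at 290 mOsm/L and given the same LPS, cells raised at 450 mOsm/L without LPS, and cells raised at 290 mOsm/L without LPS. Every culture was collected on day 7 and plated for the 6 h. Each group had 4 arrays, 16 in all, and per the labels the same 4 mice supplied each group. The mouse number is therefore the replicate number, and per-array values below are listed in the order of mice 1 to 4. Cells were not sorted, and GM-CSF cultures are known to hold macrophages and granulocytes beside dendritic cells.

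Type I interferons bind the receptor made of Ifnar1 and Ifnar2, whose kinases activate a complex that holds Stat2 and Irf9. The complex binds the interferon-stimulated response element, a promoter sequence with repeated GAAA cores, and so switches on the effector genes. LPS, a bacterial cell wall component, makes dendritic cells secrete type I interferon through the receptor Tlr4 and its adaptors Ticam1 and Ticam2, so the effector genes rise after LPS as well. NaCl-rich medium is used to model the salt concentrations found in the kidney medulla and in inflamed or salt-loaded skin.

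Levels are deposited RMA values on a log2 scale, so a difference of 1 is a doubling. They show where a probe set lies on the array scale, and probe sets differ in brightness. The level of a gene is therefore mainly set against its own level in another group. Where members are classed, correlated or counted by level below, the order partly reflects the brightness of their probe sets. RMA compresses differences at low signal and near the top of the scale, which ended at 14.32 on these arrays. Differences are given as log2 change ± SE from 1 limma model of all 16 arrays, and a gene is said to rise or fall where the Benjamini-Hochberg adjusted p over the 10236 genes was under 0.05. Array medians lay between 6.78 and 6.93, and the median correlation of an array with its own group over the tested genes was 0.990 or higher on every array. Of the dendritic cell markers, Itgax lay at 11.80 to 12.02 at 450 mOsm and 12.05 to 12.19 at 290 mOsm, and Cd74 at 13.57 to 13.71 and 13.56 to 13.64 in the same order. Zbtb46, a factor of conventional dendritic cells, lay near the filter level of 6.83, at 6.81 to 7.06 at 450 mOsm and 6.68 to 6.92 at 290 mOsm, and the precursor receptor Flt3 lay below that level on all 8 of these arrays, at 5.96 to 6.24 and 6.05 to 6.49.

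Without LPS, cells raised at 450 mOsm held more of most effector transcripts than cells raised at 290 mOsm. Of 37 members, 30 rose and 0 fell. Over all tested genes 20.6% rose and 23.7% fell. Mx2 lay below the filter level on all 8 of these arrays and passed the filter through its LPS arrays alone; without it, in a count chosen after seeing the data, 29 of 36 rose. The median log2 change of the members was 0.45, a 1.37-fold rise, against 0.00 over all tested genes, and the members ran from -0.000695 for Mov10 to 1.33 for Zbp1. Zbp1 was the single member that at least doubled. In 29 members the 450 mOsm array was above the 290 mOsm array in 4 of 4 mice, and in 23 all 450 mOsm arrays lay above all 290 mOsm arrays. The share of all tested genes for these counts was not computed, so they only describe the members. The plot of salt changes shows the members in this order.

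**Figure D1:**
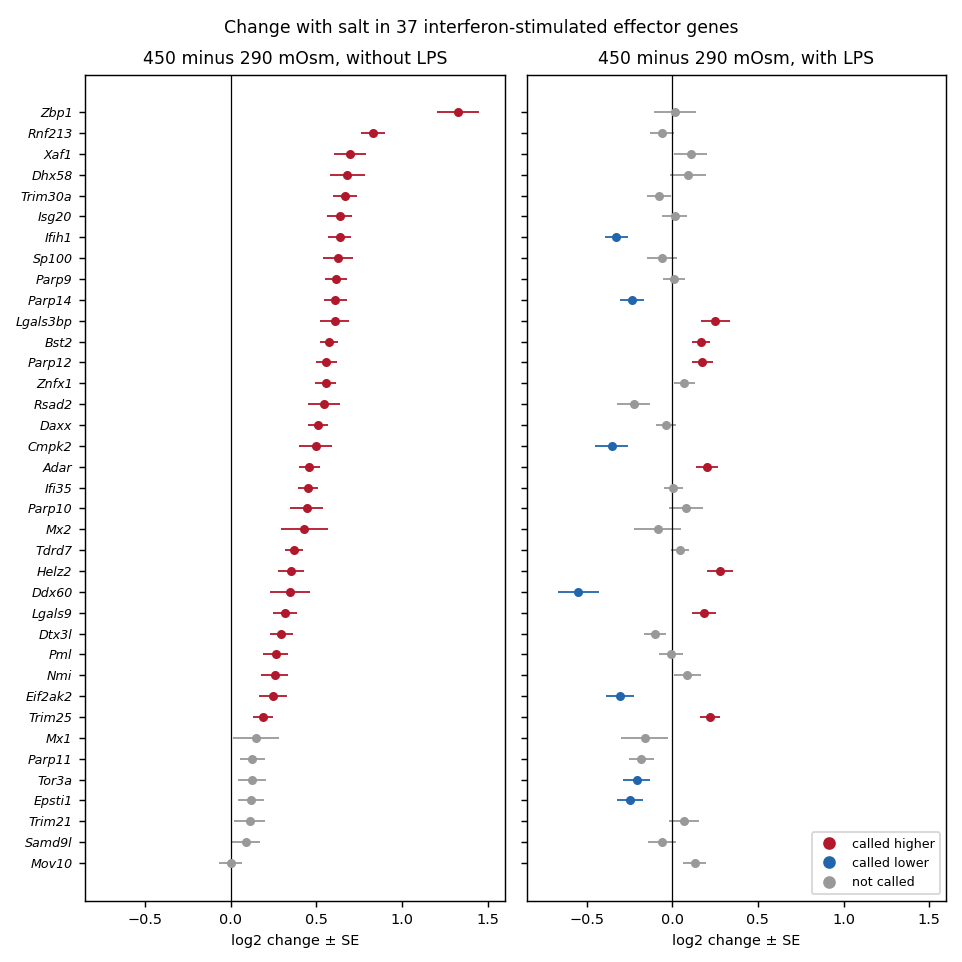
Log2 change with salt (450 minus 290 mOsm) ± SE for each of 37 interferon-stimulated effector genes, without LPS on the left and with LPS on the right, from limma on 4 arrays per group; red points rose, blue points fell and grey points did not pass an adjusted p of 0.05. Without LPS 30 of 37 are red and 0 are blue, and with LPS 7 are red and 7 are blue, on the same horizontal scale.

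Among the sensors of foreign or misplaced nucleic acid, grouped with the editing enzyme Adar, 6 of 6 rose with salt alone, with a median log2 change of 0.55. Zbp1 (probe set 10490150), a sensor of Z-form nucleic acids that can start necroptosis, read 9.29, 9.0, 8.48 and 8.93 at 450 mOsm, against 7.68, 7.62, 7.33 and 7.77 at 290 mOsm. Every 450 mOsm value exceeded every 290 mOsm value, and the log2 change was 1.33 ± 0.12, a 2.51-fold rise (adjusted p = 1.38e-07). Dhx58 (probe set 10391207), the LGP2 protein that modulates the RIG-I-like receptors, read 9.28, 8.99, 8.55 and 8.86 at 450 mOsm, against 8.26, 8.19, 8.21 and 8.29 at 290 mOsm. The groups did not overlap, the spread lay in the 450 mOsm arrays, and the log2 change was 0.68 ± 0.10 (adjusted p = 5.4e-05). Ifih1, the double-stranded RNA receptor MDA5, rose by 0.64 ± 0.07, and Adar, which edits adenosine to inosine in double-stranded RNA, rose by 0.46 ± 0.06. The kinase Eif2ak2, or PKR, which halts translation when it binds double-stranded RNA, rose by 0.25 ± 0.08, and the helicase Ddx60 by 0.35 ± 0.12. Without the 450 mOsm array of mouse 1 neither passed, at 0.132 for Eif2ak2 (adjusted p = 0.0653) and 0.194 for Ddx60 (adjusted p = 0.0808). Both calls were also lost without mouse 2 (0.236 and 0.35), and that of Ddx60 without mouse 3 (0.344) or without the 290 mOsm array of mouse 1 or 2 (0.34 and 0.334). With each array centred on its median Eif2ak2 had 0.189 (adjusted p = 0.106) and Ddx60 0.290 (adjusted p = 0.079), and in a model of only these 2 groups the adjusted p was 0.0744 for Eif2ak2 and 0.0700 for Ddx60. Quantile normalization gave 0.274 for Ddx60 (adjusted p = 0.074).

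Of the 7 measured genes for proteins that act directly on viruses, 5 rose with salt alone, Mx2 included. Isg20, a 3'-to-5' exonuclease that degrades RNA, rose by 0.64 ± 0.07, and Bst2, the tetherin that holds budding virions at the cell surface, by 0.57 ± 0.05. Rsad2 (viperin), which makes a chain-terminating nucleotide, rose by 0.55 ± 0.09, and Cmpk2, a mitochondrial nucleotide kinase, by 0.50 ± 0.10. Rsad2 and Cmpk2 are neighbours on chromosome 12 in RefSeq (GRCm38.p6). Mx2, of the dynamin-like GTPase family, read 6.50, 6.07, 5.62 and 5.88 at 450 mOsm, against 5.75, 5.74, 5.49 and 5.36 at 290 mOsm, below the filter level of 6.83 on all 8 arrays, and its change in this dim range was 0.43 ± 0.14. Its relative Mx1 did not pass, with a change of 0.15 ± 0.14 (adjusted p = 0.384); without mouse 4 it was 0.363 (adjusted p = 0.0186), and without the 450 mOsm array of mouse 4 alone 0.325 (adjusted p = 0.0139). RefSeq lists both Mx1 and Mx2 as transcribed pseudogenes in the C57BL/6 reference, and similar sequences in these relatives may share probes. The Mx2 call was lost without the 450 mOsm array of mouse 1, where the change was 0.269 (adjusted p = 0.0546), without the 290 mOsm array of mouse 4, without mouse 2 or mouse 4, and with quantile normalization (0.325, adjusted p = 0.0679).

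Of the 6 genes of the PARP group, 5 rose with salt alone, with Dtx3l counted among them. PARP enzymes attach ADP-ribose to proteins or RNA, and Dtx3l is the ubiquitin ligase that pairs with Parp9. Parp9 rose by 0.61 ± 0.06, Parp14 by 0.61 ± 0.07, Parp12 by 0.56 ± 0.06, Parp10 by 0.44 ± 0.10 and Dtx3l by 0.30 ± 0.07. Parp14, Dtx3l and Parp9 lie side by side on chromosome 16 in RefSeq, and the last pair overlap. Parp11, by contrast, changed by 0.13 ± 0.07 and did not pass (adjusted p = 0.168). Among ubiquitin ligases 3 of 4 rose. Rnf213 (probe set 10383214), a giant ligase with ATPase domains, read 11.31, 11.01, 10.93 and 10.95 at 450 mOsm, against 10.09, 10.26, 10.29 and 10.23 at 290 mOsm. These groups were fully separate, with a log2 change of 0.83 ± 0.07, a 1.78-fold rise (adjusted p = 5.62e-08), and its other probe set gave 0.63. Trim30a, which restrains Toll-like receptor signalling in the mouse, rose by 0.67 ± 0.07, and Trim25, the ligase that activates RIG-I, by 0.19 ± 0.06. The Trim25 call was lost without mouse 1, mouse 2 or mouse 4, or without the 290 mOsm array of mouse 2, with values from 0.129 to 0.188, and with median centring (0.133, adjusted p = 0.0734).

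All 3 nuclear body proteins rose. Sp100 rose by 0.62 ± 0.09, the histone chaperone Daxx by 0.51 ± 0.06 and Pml, the scaffold of these bodies, by 0.26 ± 0.07. The Pml change was 0.179 without mouse 1 (adjusted p = 0.0901) and 0.215 without mouse 2 (adjusted p = 0.0744). Of the 4 helicase and RNA granule proteins, Znfx1 rose by 0.55 ± 0.06, Tdrd7 by 0.37 ± 0.05 and Helz2 by 0.35 ± 0.08. Among the 7 remaining members 5 rose, led by Xaf1 (probe set 10378068), an antagonist of the apoptosis inhibitor XIAP. Xaf1 read 8.51, 8.17, 7.98 and 8.0 at 450 mOsm, against 7.62, 7.31, 7.53 and 7.43 at 290 mOsm. The groups did not overlap, and mouse 1 was the highest in both, with a log2 change of 0.70 ± 0.09 (adjusted p = 1.44e-05). The secreted galectin ligand Lgals3bp rose by 0.61 ± 0.08, galectin-9 (Lgals9) by 0.32 ± 0.07, and the interacting proteins Ifi35 and Nmi by 0.45 ± 0.06 and 0.26 ± 0.08. The Nmi change was 0.17 without the 450 mOsm array of mouse 1 (adjusted p = 0.0569), and the call was also lost without mouse 3, without the 290 mOsm array of mouse 4 and with median centring (0.201, adjusted p = 0.0869).

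The members least changed by salt alone came from several of these roles. Mov10, an RNA helicase that restricts retroelements, read 8.63, 8.77, 8.49 and 8.67 at 450 mOsm, against 8.62, 8.50, 8.78 and 8.67 at 290 mOsm. The ranges coincided, with a change of -0.000695 and an SE of 0.07 (adjusted p = 0.994). Samd9l, a cytoplasmic restriction factor of poxviruses, read 9.39, 8.92, 9.13 and 8.94 at 450 mOsm, against 8.97, 9.10, 8.91 and 9.04 at 290 mOsm, and changed by 0.09 ± 0.08 (adjusted p = 0.384). Trim21, a cytosolic antibody receptor, read 8.41, 8.22, 7.98 and 8.04 at 450 mOsm, against 8.11, 8.01, 7.94 and 8.17 at 290 mOsm, and changed by 0.11 ± 0.09 (adjusted p = 0.332). In both genes the 450 mOsm array of mouse 1 was the highest of the 8 and the other arrays overlapped. Epsti1 read 9.15, 8.96, 9.05 and 8.84 at 450 mOsm, against 9.12, 8.80, 8.79 and 8.82 at 290 mOsm, and changed by 0.12 ± 0.08 (adjusted p = 0.219). Its 290 mOsm array of mouse 1 stood above the other 3, and without that array the change was 0.198 (adjusted p = 0.0303). Tor3a, an ATPase of the endoplasmic reticulum, changed by 0.13 ± 0.08 and did not pass (adjusted p = 0.215).

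Promoter sequences are shown for members at the top and the bottom of this order, so that the sequences upstream of a gene that rose and of one that did not can be read side by side. RefSeq promoter windows (GRCm38.p6) existed for 29 of the members, 42 windows in all. The 250 bases before the start site were searched on both strands for the core of the interferon-stimulated response element, GAAA, then 2 bases of any kind, then GAAA. The core stood in 7 of 42 member windows, 16.7%, against 2.98% of 32851 windows of all genes. Including the 50 bases after the start site, the counts were 11 of 42 windows, 26.2%, against 3.44%. The members added were Eif2ak2 and Ifih1, which rose with salt alone, and Trim21, which did not pass. The members with an upstream core were Bst2, Ddx60, Lgals9, Parp11, Rsad2, Tdrd7 and Trim30a, of which 6 of 7 rose with salt alone, against 18 of 22 members whose windows held no upstream core. The matches are shown with 5 bases on each side, 5' to 3' on the strand of the gene, with the core in capitals; where it reads TTTC it lies on the opposite strand, and the pair in Bst2 overlap.
Bst2 (chr8:71537588-71537607, minus strand): tccagGAAAATGAAActgaa
Bst2 (chr8:71537582-71537601, minus strand): aaaatGAAACTGAAAggctg
Ddx60 (chr8:61928029-61928048, plus strand): gaatgGAAACCGAAActtaa
Ddx60 (chr8:61928063-61928082, plus strand): gaagaGAAACCGAAActatc
Lgals9 (chr11:78984965-78984984, minus strand): tcagcTTTCTTTTTCtctag
Parp11 (chr6:127446791-127446810, plus strand): tttagTTTCGATTTCttgga
Rsad2 (chr12:26456558-26456577, minus strand): ccaacTTTCATTTTCagaaa
Tdrd7 (chr4:45972101-45972120, plus strand): ttgtgGAAAGAGAAAtaaat
Trim30a (chr7:104465215-104465234, minus strand): tttagTTTCTTTTTCtcagt

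The 3 members with the highest and the 3 with the lowest salt change among those with a window are shown with the 250 bases that end at the start site. Where a gene had more than 1 window, the one with a core is given, or otherwise window 1. Capitals mark the core, which within the bases shown stands in Trim30a alone. Where bases after the start site were included, Trim21 had a core as well, which does not lie wholly within the bases shown. The first 3 are Rnf213, Xaf1 and Trim30a, which rose with salt.
Rnf213 (chr11:119389849-119390098, plus strand): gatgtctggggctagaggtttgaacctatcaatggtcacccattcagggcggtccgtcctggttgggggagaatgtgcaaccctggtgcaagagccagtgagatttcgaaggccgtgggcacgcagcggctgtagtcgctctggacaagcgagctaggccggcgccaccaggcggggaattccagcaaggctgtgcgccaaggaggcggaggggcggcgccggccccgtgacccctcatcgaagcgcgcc
Xaf1 (chr11:72301379-72301628, plus strand): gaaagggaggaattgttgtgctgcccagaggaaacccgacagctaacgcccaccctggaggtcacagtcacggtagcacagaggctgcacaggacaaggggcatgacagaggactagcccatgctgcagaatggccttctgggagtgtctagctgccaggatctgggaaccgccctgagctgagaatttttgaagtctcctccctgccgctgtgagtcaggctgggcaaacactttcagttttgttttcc
Trim30a (chr7:104465194-104465443, minus strand): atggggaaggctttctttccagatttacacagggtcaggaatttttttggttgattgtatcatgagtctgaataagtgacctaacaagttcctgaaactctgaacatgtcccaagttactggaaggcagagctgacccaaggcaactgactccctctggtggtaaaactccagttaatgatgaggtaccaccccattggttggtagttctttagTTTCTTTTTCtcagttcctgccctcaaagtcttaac
The other 3 are Trim21, Samd9l and Mov10, whose salt changes did not pass.
Trim21 (chr7:102565483-102565732, minus strand): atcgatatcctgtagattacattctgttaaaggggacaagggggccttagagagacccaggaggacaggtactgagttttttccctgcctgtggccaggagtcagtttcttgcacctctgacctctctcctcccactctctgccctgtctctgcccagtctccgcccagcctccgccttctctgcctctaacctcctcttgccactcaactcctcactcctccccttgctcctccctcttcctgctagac
Samd9l (chr6:3399572-3399821, minus strand): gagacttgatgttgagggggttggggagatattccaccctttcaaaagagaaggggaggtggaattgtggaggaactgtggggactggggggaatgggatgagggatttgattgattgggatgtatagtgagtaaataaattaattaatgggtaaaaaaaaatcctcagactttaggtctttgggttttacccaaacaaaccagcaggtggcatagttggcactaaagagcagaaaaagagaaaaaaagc
Mov10 (chr3:104818306-104818555, minus strand): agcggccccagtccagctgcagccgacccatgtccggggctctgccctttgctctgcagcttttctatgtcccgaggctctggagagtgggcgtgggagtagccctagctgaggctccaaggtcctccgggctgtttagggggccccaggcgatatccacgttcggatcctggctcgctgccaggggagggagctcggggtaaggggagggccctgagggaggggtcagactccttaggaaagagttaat

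The size of the salt rise differed between mice. The mean level of the 37 members on an array was 9.17 to 9.54 at 450 mOsm, against 8.84 to 8.91 at 290 mOsm. At 450 mOsm the array of mouse 1 exceeded the group mean in 36 of 37 members, by 0.22 on average, while that of mouse 3 did so in 4 of 37 and lay 0.15 below. The SD over mice of this mean was 0.16 at 450 mOsm and 0.03 at 290 mOsm. Single members showed the same: the median SD of a member over the 4 arrays was 0.17 at 450 mOsm and 0.084 at 290 mOsm, while that of all tested genes was 0.098 at 450 mOsm and 0.083 at 290 mOsm. Within mice 1, 2, 3 and 4 the median salt change of the members was 0.66, 0.50, 0.32 and 0.34, and 37, 36, 33 and 32 of 37 members were higher at 450 mOsm. For these counts too the share of all tested genes was not computed. Without mouse 1 the median over members was 0.37. The plot of mean levels shows the 4 mice in each group.

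**Figure D2:**
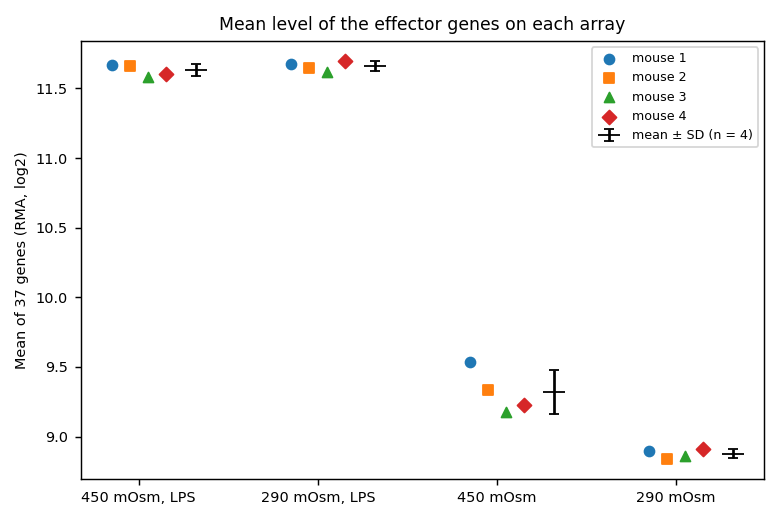
Mean RMA level (log2) of the 37 effector genes on each array, by group, with a symbol for each mouse and a bar for the group mean ± SD (n = 4). The 450 mOsm arrays spread from 9.17 to 9.54, above the 290 mOsm arrays at 8.84 to 8.91, while both groups with LPS lie between 11.58 and 11.70.

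Markers of other cells moved with salt as well. All 11 measured neutrophil genes fell with salt alone, with a median log2 change of -3.23, and their mean level was 6.84 to 7.06 at 450 mOsm, against 9.97 to 10.46 at 290 mOsm. Of the macrophage list 5 of 7 fell and 1 rose, and its mean level was 10.74 to 10.87 at 450 mOsm, against 11.17 to 11.25 at 290 mOsm. Of the mast cell and basophil list 4 of 4 tested genes fell, and its mean level was 5.63 to 5.79 at 450 mOsm, against 6.48 to 7.16 at 290 mOsm. In these bulk samples, fewer cells of a type and less RNA per cell cannot be told apart, and the part of these shifts in the effector gene changes was not tested. The list for plasmacytoid dendritic cells, which secrete much type I interferon, had a mean level of 7.02 to 7.23 at 450 mOsm, against 7.02 to 7.16 at 290 mOsm, and 1 of its 3 tested genes rose. Its defining marker Siglech lay below the filter level on all 8 arrays, at 5.82 to 6.08 at 450 mOsm and 5.85 to 5.98 at 290 mOsm. The mean of the dendritic cell list was 10.74 to 10.89 at 450 mOsm, against 10.79 to 10.92 at 290 mOsm, and 1 of its 8 genes rose and 2 fell.

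The salt changes had little relation to the level at which a member started, while the LPS changes were smaller where the level was higher. Across the 37 members, the level at 290 mOsm and the log2 change with salt alone had r = 0.08 and rho = 0.14, a description over genes that share the same 290 mOsm arrays. Over all tested genes the values were -0.18 and -0.25. In the 12 members with the lowest levels at 290 mOsm, from 5.58 to 8.23, the median salt change was 0.39 and 9 rose. In the 13 of the middle class it was 0.44 with 10 rising, and in the 12 of the highest class, from 9.51 to 12.17, it was 0.57 with 11 rising. Level at 290 mOsm and LPS change at 290 mOsm had r = -0.68 and rho = -0.66 across the members, against -0.18 and -0.18 over all tested genes. The same 290 mOsm arrays enter both the level and the LPS change. The 3 classes had median LPS changes of 3.75, 2.34 and 2.08. The plot of change against starting level sets these relations side by side.

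**Figure D3:**
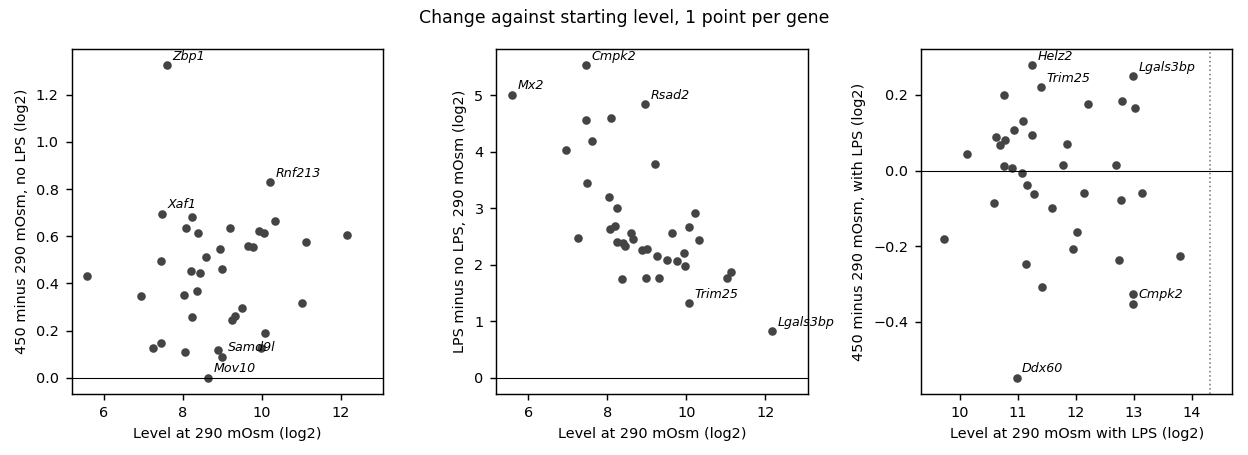
Log2 change against starting level (RMA, log2), 1 point per gene for 37 effector genes: salt without LPS against the 290 mOsm level on the left, LPS at 290 mOsm against the same level in the middle, and salt with LPS against the level at 290 mOsm with LPS on the right, where the dotted line is the highest value on any array, 14.32. The salt changes without LPS have little relation to level (r = 0.08), and the LPS changes are smaller for genes that start higher (r = -0.68). With LPS the salt changes lie on both sides of 0 over most of the level range. Rsad2 and Rnf213, which start highest, both lie below 0.

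LPS raised every measured member at both salt concentrations. At 450 mOsm 37 of 37 rose, with a median log2 change of 2.03 and a range from 0.47 to 4.69, and at 290 mOsm 37 of 37 rose, with a median of 2.45 and a range from 0.82 to 5.54. Over all tested genes 26.4% rose and 45.3% fell with LPS at 450 mOsm, and 26.4% rose and 47.1% fell at 290 mOsm. In each of the 37 members all LPS arrays lay above all arrays without LPS at the same osmolarity. The share of all tested genes with separate arrays was not computed. Mx2 passed the filter through its LPS arrays alone, so its rise with LPS and its separate arrays were favoured by the filter. The direct antiviral effectors had the highest median of the roles, 4.07 at 450 mOsm and 4.61 at 290 mOsm. The median over all tested genes was -0.09 at 450 mOsm and -0.11 at 290 mOsm.

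Cmpk2 (probe set 10395039) with LPS read 12.64, 12.68, 12.58 and 12.66 at 450 mOsm and 13.07, 12.99, 12.92 and 12.98 at 290 mOsm; without LPS it read 8.36, 7.88, 7.87 and 7.69 at 450 mOsm and 7.39, 7.52, 7.45 and 7.46 at 290 mOsm. Its LPS change was 4.69 ± 0.10 at 450 mOsm, 25.8-fold, and 5.54 ± 0.10 at 290 mOsm, 46.4-fold. Mx2 read 10.62, 10.55, 10.44 and 10.43 at 450 mOsm with LPS, against 10.69, 10.70, 10.41 and 10.58 at 290 mOsm with LPS, with LPS changes of 4.49 ± 0.14 at 450 mOsm and 5.01 ± 0.14 at 290 mOsm. Its arrays without LPS lay in the dim range given above, where RMA understates folds. Rsad2 with LPS read 13.55, 13.66, 13.54 and 13.54 at 450 mOsm and 13.80, 13.81, 13.85 and 13.73 at 290 mOsm; without LPS it read 9.79, 9.35, 9.34 and 9.53 at 450 mOsm and 8.93, 8.98, 8.72 and 9.19 at 290 mOsm. Its LPS change was 4.07 ± 0.09 at 450 mOsm and 4.84 ± 0.09 at 290 mOsm. Mx1 with LPS read 11.93, 11.95, 11.82 and 11.76 at 450 mOsm and 12.06, 12.03, 11.96 and 12.06 at 290 mOsm; without LPS it read 7.94, 7.84, 7.57 and 7.08 at 450 mOsm and 7.68, 7.28, 7.31 and 7.57 at 290 mOsm, and rose with LPS by 4.26 ± 0.14 at 450 mOsm and 4.57 ± 0.14 at 290 mOsm. Isg20 with LPS read 12.70, 12.75, 12.69 and 12.70 at 450 mOsm and 12.68, 12.62, 12.69 and 12.80 at 290 mOsm; without LPS it read 8.87, 8.64, 8.68 and 8.72 at 450 mOsm and 8.14, 8.0, 7.91 and 8.31 at 290 mOsm, and rose by 3.98 ± 0.07 and 4.61 ± 0.07 in the same order of osmolarity.

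At the other end stood Lgals3bp (probe set 10393573), the secreted galectin ligand. With LPS this gene read 13.26, 13.27, 13.18 and 13.26 at 450 mOsm and 12.92, 12.86, 13.08 and 13.11 at 290 mOsm; without LPS it read 12.87, 12.90, 12.52 and 12.82 at 450 mOsm and 12.06, 12.04, 12.28 and 12.31 at 290 mOsm. LPS raised it by 0.47 ± 0.08 at 450 mOsm and 0.82 ± 0.08 at 290 mOsm, the only member that LPS did not double. Trim25 with LPS read 11.68, 11.64, 11.56 and 11.60 at 450 mOsm and 11.38, 11.38, 11.33 and 11.49 at 290 mOsm; without LPS it read 10.29, 10.32, 10.11 and 10.33 at 450 mOsm and 10.10, 9.96, 10.12 and 10.12 at 290 mOsm. LPS raised it by 1.36 ± 0.06 at 450 mOsm and 1.32 ± 0.06 at 290 mOsm. Tdrd7, a Tudor-domain protein of RNA granules, with LPS read 10.18, 10.15, 10.14 and 10.19 at 450 mOsm and 10.14, 10.12, 10.06 and 10.16 at 290 mOsm; without LPS it read 8.82, 8.81, 8.62 and 8.68 at 450 mOsm and 8.44, 8.27, 8.40 and 8.35 at 290 mOsm, and rose by 1.43 at 450 mOsm and 1.76 at 290 mOsm. Bst2 with LPS read 13.19, 13.13, 13.22 and 13.16 at 450 mOsm and 12.98, 12.97, 13.03 and 13.07 at 290 mOsm; without LPS it read 11.78, 11.67, 11.60 and 11.77 at 450 mOsm and 11.21, 11.02, 11.12 and 11.18 at 290 mOsm, with LPS changes of 1.47 and 1.88. All 16 Bst2 arrays fall into 4 separate bands in the order of 450 mOsm with LPS, 290 mOsm with LPS, 450 mOsm and 290 mOsm. Pml with LPS read 11.11, 11.09, 10.99 and 11.08 at 450 mOsm and 11.12, 10.98, 11.08 and 11.13 at 290 mOsm; without LPS it read 9.75, 9.63, 9.36 and 9.57 at 450 mOsm and 9.24, 9.22, 9.39 and 9.40 at 290 mOsm, with LPS changes of 1.49 and 1.76. The plot of levels on each array shows all 37.

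**Figure D4:**
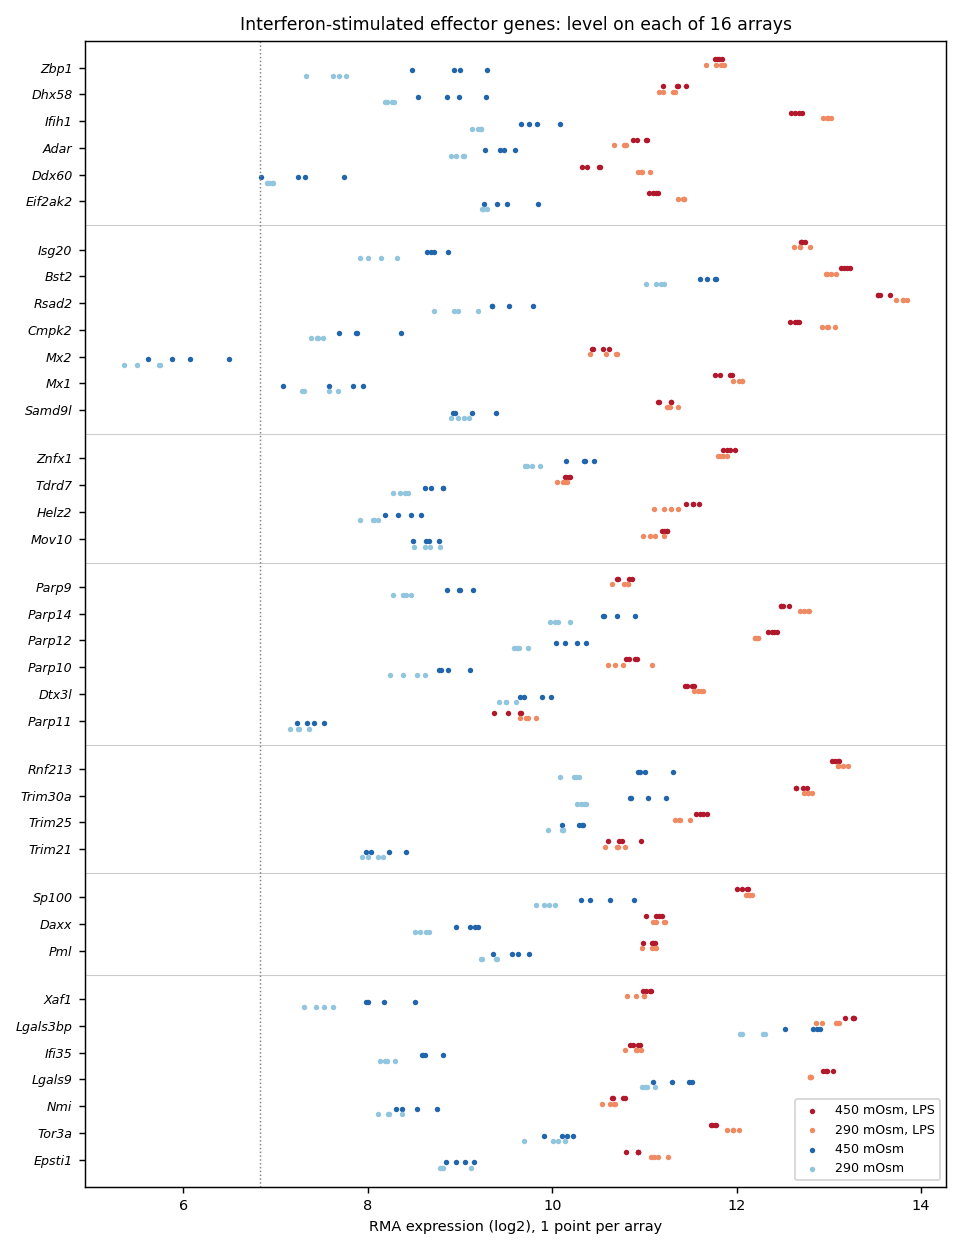
RMA level (log2) of each of the 37 effector genes on each of the 16 arrays. Genes are ordered by role from the top (sensors and editing, direct effectors, helicase and granule proteins, PARP family, ubiquitin ligases, nuclear body proteins, others). Within a role they are ordered by falling salt change without LPS. Colours mark the groups and the dotted line is the filter level of 6.83. The LPS points lie to the right of the points without LPS at the same osmolarity in 37 of 37 genes, and only Mx2 lies below the line without LPS.

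With LPS the members lay higher and closer together on the array scale. Their median level with LPS was 11.49 at 450 mOsm and 11.40 at 290 mOsm; without LPS it was 9.09 at 450 mOsm and 8.88 at 290 mOsm. The SD over the 37 members was 0.97 and 0.98 in the groups with LPS, against 1.34 and 1.30 in those without, each pair with 450 mOsm first. A level over 12 was reached by 12 members at 450 mOsm with LPS and by 13 at 290 mOsm with LPS, and by 1, Lgals3bp, in each group without LPS. The highest member value on any array was 13.85, for Rsad2, below the table's highest value of 14.32. In the 13 members over 12 at 290 mOsm with LPS, the median salt change with LPS was -0.06, 4 rose and 3 fell. In the other 24 the median was 0.01, 3 rose and 4 fell. Across the 37, the level at 290 mOsm with LPS and the salt change with LPS had r = -0.13 and rho = -0.13, over genes that share the 290 mOsm LPS arrays. Part of any difference near the top of the scale is compressed by the array, and its size was not tested.

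Under LPS, salt moved the members in both directions and by little. Of 37 members 7 rose, 7 fell and 23 did not pass. These counts were close to the shares of the whole table, where 16.8% of all tested genes rose and 21.8% fell. The median log2 change was 0.01, against 0.00 over all tested genes, and the range ran from -0.55 to 0.28, so no member doubled or halved. With each array centred on its median 3 rose and 9 fell. The counts also depended on single animals and arrays: 1 rose without mouse 1 and 2 without mouse 2, when 4 fell. Leaving out 1 array gave 4, 3 and 4 rising without mice 1, 2 and 3 of the 290 mOsm LPS group, and 2 and 4 without mice 1 and 4 of the 450 mOsm LPS group. Of the 14 calls, 5 were kept under every alternative run.

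Those 5 were Helz2, which rose, and Ddx60, Cmpk2, Ifih1 and Eif2ak2, which fell. Helz2, a helicase that also acts as a nuclear receptor coactivator, read 11.53, 11.59, 11.52 and 11.45 at 450 mOsm with LPS, against 11.36, 11.29, 11.11 and 11.22 at 290 mOsm with LPS, and rose by 0.28 ± 0.08 (adjusted p = 0.00693). Ddx60 read 10.50, 10.52, 10.33 and 10.38 at 450 mOsm with LPS, against 10.92, 10.97, 10.96 and 11.06 at 290 mOsm with LPS. Its log2 change was -0.55 ± 0.12, 1.46-fold lower (adjusted p = 0.00131). In both genes the groups were separate in the 4 mice. Cmpk2, with the values given above, changed by -0.35 ± 0.10 (adjusted p = 0.00745). Ifih1 (probe set 10483110) read 12.71, 12.68, 12.59 and 12.64 at 450 mOsm with LPS, against 12.98, 12.98, 12.94 and 13.02 at 290 mOsm with LPS, and changed by -0.33 ± 0.07 (adjusted p = 0.000969). Eif2ak2 read 11.14, 11.12, 11.05 and 11.10 at 450 mOsm with LPS, against 11.42, 11.42, 11.36 and 11.43 at 290 mOsm with LPS, and changed by -0.31 ± 0.08 (adjusted p = 0.00702). In each of these 3 every 450 mOsm LPS array lay below every 290 mOsm LPS array, although the same genes had risen with salt alone. In the main model Ifih1, Ddx60, Eif2ak2, Cmpk2 and Parp14 thus passed in opposite directions without and with LPS. Only Ifih1 and Cmpk2 kept both calls under every alternative. The calls of Ddx60 and Eif2ak2 with salt alone, and that of Parp14 under LPS, were lost in at least 1.

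The other members that rose under LPS changed by 0.25 or less. Lgals3bp changed by 0.25 ± 0.08 (adjusted p = 0.0256), Trim25 by 0.22 ± 0.06 (adjusted p = 0.00612) and Adar by 0.20 ± 0.06 (adjusted p = 0.0179). Adar read 11.02, 11.01, 10.88 and 10.92 at 450 mOsm with LPS, against 10.78, 10.79, 10.67 and 10.80 at 290 mOsm with LPS. Lgals9, Parp12 and Bst2 changed by 0.18, 0.18 and 0.17. Among those that fell, Epsti1 changed by -0.25, Parp14 by -0.24 and Tor3a by -0.21. The calls of Lgals3bp, Adar, Lgals9, Parp12, Bst2, Epsti1 and Tor3a were each lost on leaving out any of several mice or arrays (those of Adar, Bst2, Parp12 and Lgals9 also with median centring, those of Lgals9 and Tor3a also with quantile normalization, that of Tor3a also with cyclic loess, and those of Lgals9, Parp12 and Tor3a also with no filter), that of Trim25 without mouse 1 (0.195, adjusted p = 0.0657) and that of Parp14 without mouse 2 (-0.214, adjusted p = 0.0659). Parp11 changed by -0.18 ± 0.07 and did not pass (adjusted p = 0.0588), but passed with the mouse as a replicate block (adjusted p = 0.0143). Under LPS 10 of 11 neutrophil genes fell, with a mean level of 7.75 to 7.94 at 450 mOsm with LPS, against 10.30 to 10.71 at 290 mOsm with LPS. Of the macrophage list 4 of 7 fell and 0 rose, with a median of -0.68, and its mean level was 11.24 to 11.33 at 450 mOsm with LPS, against 11.82 to 11.88 at 290 mOsm with LPS. Of the dendritic cell list 2 of 8 rose and 3 fell, of the mast cell and basophil list 1 of 4 rose and 2 fell, and of the plasmacytoid list 0 of 3 passed. Their part in the changes under LPS was not tested.

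Whether the log2 change with salt differed with and without LPS was tested directly, as the salt change with LPS minus the salt change without it. The test compares folds, so equal added amounts on levels raised by LPS would also give a negative difference. The part of this, and of compression near the top of the scale, was not tested. The difference of salt changes passed as negative in 26 of 37 members and as positive in 0. Over all tested genes 10.4% passed as negative and 10.7% as positive. The median was -0.41, against 0.00 over all tested genes, and the members ran from -1.31 to 0.13. By role it passed in 6 of 6 of the sensor and editing group, 4 of 7 direct effectors and 2 of 4 helicase and granule proteins. It also passed in 5 of 6 of the PARP group, 2 of 4 ubiquitin ligases, 2 of 3 nuclear body proteins and 5 of 7 others. The same quantity is the LPS change at 450 mOsm minus that at 290 mOsm. Zbp1 was the extreme, with 11.84, 11.79, 11.77 and 11.80 at 450 mOsm with LPS, against 11.78, 11.83, 11.67 and 11.86 at 290 mOsm with LPS. These overlapped, although the gene was 2.51-fold higher at 450 mOsm without LPS, and the difference of the salt changes was -1.31 ± 0.17 (adjusted p = 2.47e-05). Ifih1, at 10.08, 9.84, 9.66 and 9.75 at 450 mOsm and 9.13, 9.22, 9.22 and 9.20 at 290 mOsm, had a difference of -0.96 ± 0.10 (adjusted p = 1.53e-06). Ddx60 had -0.89 ± 0.17, with 7.74, 7.24, 7.32 and 6.85 at 450 mOsm and 6.92, 6.90, 6.97 and 6.96 at 290 mOsm, and Rnf213 had -0.89 ± 0.10, with 13.10, 13.11, 13.07 and 13.03 at 450 mOsm with LPS, against 13.09, 13.15, 13.09 and 13.21 at 290 mOsm with LPS.

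At the other end the difference did not pass. Mov10 read 11.21, 11.24, 11.19 and 11.25 at 450 mOsm with LPS, against 11.07, 10.98, 11.11 and 11.21 at 290 mOsm with LPS, with a difference of 0.13 ± 0.10 (adjusted p = 0.372). Trim25 had 0.03 ± 0.08, with salt changes of 0.22 with LPS and 0.19 without LPS. Trim21, at 10.76, 10.96, 10.61 and 10.72 at 450 mOsm with LPS, against 10.71, 10.70, 10.57 and 10.79 at 290 mOsm with LPS, had -0.04 ± 0.13, and Helz2, at 8.58, 8.47, 8.19 and 8.33 at 450 mOsm and 7.92, 8.07, 8.11 and 8.05 at 290 mOsm, had -0.07 ± 0.11. Of the 26 differences that passed, 18 were kept under every alternative, and those of Dhx58, Adar, Tdrd7, Parp11, Parp12, Tor3a, Lgals3bp and Epsti1 were lost in at least 1. Without mouse 2 all 8 of these were lost, which left 18 members. Mx2, at -0.52 ± 0.19, did not pass (adjusted p = 0.0661), but passed with the mouse as a replicate block (adjusted p = 0.00857).

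Salt alone left the members below the level reached with LPS alone. Cells at 450 mOsm without LPS were lower than cells at 290 mOsm with LPS in 37 of 37 members, with a median log2 difference of -2.09 and a range from -5.04 to -0.22, while 27.8% of all tested genes were lower and 45% were higher. Cmpk2 differed by -5.04 ± 0.10, Mx2 by -4.58 ± 0.14, Mx1 by -4.42 ± 0.14 and Rsad2 by -4.30 ± 0.09. The Mx2 difference was favoured by the filter, which Mx2 passed through its LPS arrays alone. The arrays were separate in 36 members, a count with no share computed over all tested genes. Lgals3bp was the exception, at 12.87, 12.90, 12.52 and 12.82 at 450 mOsm without LPS, against 12.92, 12.86, 13.08 and 13.11 at 290 mOsm with LPS, and its difference of -0.22 ± 0.08 (adjusted p = 0.0287) was lost without mouse 3 (-0.102, adjusted p = 0.269) or mouse 4 (-0.192, adjusted p = 0.0997), without mouse 3 or 4 of the 290 mOsm LPS group (-0.188 and -0.176), without mouse 3 of the 450 mOsm group (-0.129), with quantile normalization (-0.0495, adjusted p = 0.639) and with array weights (-0.164, adjusted p = 0.0798). Next were Trim25 at -1.14 ± 0.06, Bst2 at -1.31 ± 0.05 and Adar at -1.31 ± 0.06, the last with 9.59, 9.48, 9.27 and 9.44 at 450 mOsm without LPS. Ranked by group mean, 18 members stood highest at 450 mOsm with LPS, then 290 mOsm with LPS, 450 mOsm and 290 mOsm. Another 18 had the groups with LPS in the opposite order, and Mov10 differed from the first 18 in having 450 mOsm last. The comparisons above share the 290 mOsm or the LPS arrays and are not independent of each other.

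Genes of the interferon pathway outside the set moved less uniformly. Of 30 listed, 26 were tested. Of these 15 rose and 4 fell with salt alone, where 20.6% of all tested genes rose and 23.7% fell. With salt under LPS 4 rose and 6 fell, close to the table's 16.8% and 21.8%. With LPS at 450 mOsm 17 rose and 4 fell, against 26.4% and 45.3% of all tested genes, and with LPS at 290 mOsm 20 rose and 5 fell, against 26.4% and 47.1%. Usp18, a protease that removes Isg15 from proteins and restrains the receptor, read 9.95, 9.88, 9.39 and 9.57 at 450 mOsm, against 8.35, 8.14, 8.12 and 8.26 at 290 mOsm, and rose by 1.48 ± 0.09 with salt alone. Irf7, the factor that amplifies interferon transcription, read 9.54, 9.37, 9.02 and 9.27 at 450 mOsm, against 8.23, 8.0, 8.23 and 8.55 at 290 mOsm, and rose by 1.04 ± 0.10. Both groups were separate in both genes, and under LPS the salt changes were 0.07 and -0.02, neither of which passed. Stat2 rose by 0.95 ± 0.09, Irf9 by 0.52 ± 0.08 and Ddx58, the RNA sensor RIG-I, by 0.75 ± 0.07. Across the alternative runs, Tlr4 changed by 0.43 to 0.59 with salt alone and by -0.47 to -0.34 with salt under LPS. Ticam2 changed by 0.54 to 0.67 and by 0.06 to 0.14 in the same order, and Ticam1 by 0.08 to 0.19 and by -0.18 to -0.10. Tlr4 passed in every such run in both comparisons. Ticam2 passed in all of them with salt alone and in none under LPS, and Ticam1 in only some for either comparison. The part of these genes in the LPS changes was not tested. The receptor chains Ifnar1 and Ifnar2 fell with salt alone, with log2 changes of -0.47 ± 0.05 and -0.32 ± 0.05. The interferon gene Ifnb1 lay below the filter level on all 16 arrays, at 5.95 to 6.17 at 450 mOsm with LPS, 5.88 to 6.11 at 290 mOsm with LPS, 5.60 to 5.78 at 450 mOsm and 5.43 to 5.63 at 290 mOsm, and was not tested. Ifna4 lay at 4.60 to 4.92 at 450 mOsm and 4.66 to 4.76 at 290 mOsm, likewise below the filter.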

How the data were processed

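The arrays were 16 Affymetrix Mouse Gene 1.0 ST arrays. The labels do not state whether the arrays of 1 mouse at 1 osmolarity came from a shared culture up to day 7. The values are the log2 expression values that the authors deposited, made with RMA in the oligo package per the submitters' processing notes; RMA equalises the arrays' distributions, so a change common to most transcripts would mostly be lost. The genome build of the probe sets is not given in the sources used here. The table held 22549 probe sets, of which 20646 carried 1 gene symbol, 551 several and 1352 none, and 20596 were found by Entrez identifier in a RefSeq table. Probe sets were kept if 4 or more arrays lay above 6.83, the median of the whole table. Where a gene had several probe sets of its own, the one with the highest mean was used, and 10236 genes were tested. Precision is limited by the number of arrays.

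Differences were tested two-sided with limma 3.58.1 in R 4.3.3, with the 4 group means in 1 linear model and 6 contrasts, with Benjamini-Hochberg adjustment over the 10236 genes and a threshold of 0.05. The model was tested on simulated data. Figures were drawn with matplotlib 3.10.9. Promoter sequences are RefSeq's (GRCm38.p6). The members, roles and lists were chosen with earlier results of these data known. All 39 members could be named, and values on every array are given for the 4 highest and the 4 lowest log2 changes in each comparison.

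Samples are paired by replicate number, since each group shares the mouse identifiers of the labels. Deviations from group means correlated within a mouse with r from -0.146 to 0.433 over the tested genes (median 0.0953, 24 pairs), against a median of -0.0351 between mice. The mouse as a replicate block, fixed or random, was an alternative. The other alternatives changed the normalization (quantile, cyclic loess or median centring of the values), the filter (none, or the 65th percentile), the probe set rule (mean over a gene's probe sets), the variance model (trended and robust, or weights per array) and the samples (the compared groups alone, or without 1 mouse or 1 array).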

Additional observations from a re-analysis of the deposited data

Results flagged for a closer look

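In 26 members the salt change with LPS differed from the salt change without LPS by the interaction test of limma (adjusted p under 0.05), and each difference was negative on the log2 scale. Among the sensors and the editing enzyme Adar the difference was -0.96 for Ifih1, -0.59 for Dhx58, -0.89 for Ddx60, -0.55 for Eif2ak2, -1.31 for Zbp1 and -0.26 for Adar. Among the direct antiviral effectors it was -0.77 for Rsad2, -0.85 for Cmpk2, -0.62 for Isg20 and -0.41 for Bst2. For the helicase and granule proteins it was -0.48 for Znfx1 and -0.33 for Tdrd7. In the PARP group it was -0.60 for Parp9, -0.31 for Parp11, -0.38 for Parp12, -0.85 for Parp14 and -0.40 for Dtx3l. For the ubiquitin ligases it was -0.74 for Trim30a and -0.89 for Rnf213. For the nuclear body proteins it was -0.68 for Sp100 and -0.55 for Daxx. For the other members it was -0.59 for Xaf1, -0.45 for Ifi35, -0.33 for Tor3a, -0.36 for Lgals3bp and -0.36 for Epsti1. The calls that were lost under some alternative are named with this comparison above.

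Within single groups of 4 arrays, 1 array stood apart from the other 3 by Dixon's criterion in 8 of 148 groups of a member, and chance sets 1 apart in about 1 in 20 groups. Epsti1 read 10.80 in mouse 2 at 450 mOsm with LPS, below the other 3 at 10.93 to 10.93. Lgals3bp read 13.18 in mouse 3 at 450 mOsm with LPS, below the other 3 at 13.26 to 13.27. Rsad2 read 13.66 in mouse 2 at 450 mOsm with LPS, above the other 3 at 13.54 to 13.55. Adar read 10.67 in mouse 3 at 290 mOsm with LPS, below the other 3 at 10.78 to 10.80. Ifi35 read 8.81 in mouse 1 at 450 mOsm, above the other 3 at 8.59 to 8.62. Trim25 read 10.11 in mouse 3 at 450 mOsm, below the other 3 at 10.29 to 10.33. Epsti1 read 9.12 in mouse 1 at 290 mOsm, above the other 3 at 8.79 to 8.82. Trim25 read 9.96 in mouse 2 at 290 mOsm, below the other 3 at 10.10 to 10.12.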

How the results depend on the processing

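For 37 members and 6 comparisons, 6584 of 6845 recomputed values kept their direction and their side of the threshold. A further 43, of 11 members and all within 0.096 of 0, changed sign with no call in either fit, and no call changed direction. The counts for LPS at both osmolarities were 37 under every alternative, and 36 to 37 members stayed lower with salt alone than with LPS alone. Members rising with salt alone numbered 25 to 31, and those with a negative difference of salt changes 18 to 29. For salt under LPS, the rising count was 3 with median centring and 1 to 7 on leaving out mice or arrays, and the falling count was 4 to 9 on leaving them out. The median change with salt alone was 0.366 to 0.521 on leaving out mice or arrays, lowest without mouse 1. Cyclic loess gave a median LPS change of 2.59 at 290 mOsm and 2.14 at 450 mOsm, and it moved the median of all tested genes for LPS at 290 mOsm to 0.018, against -0.113 as deposited. Quantile normalization gave a median of -1.97 for salt alone against LPS alone. With median centring, 1343 genes of the table rose and 3047 fell with salt alone, against 2104 and 2426. Outside the members, Irf2 had an LPS change at 450 mOsm of 0.0993 with cyclic loess (adjusted p = 0.0496), and Irf5 had a difference of 0.0164 between salt alone and LPS alone with quantile normalization (adjusted p = 0.773), both of the opposite sign to the deposited values. The cause was not tested. With the mouse as a replicate block the counts were 30 rising and 0 falling for salt alone, 7 and 8 for salt under LPS, 37 rising for LPS at each osmolarity, 27 negative differences of salt changes and 37 lower for salt alone against LPS alone. The block changed no call other than those of Parp11 and Mx2. RMA compression limits changes of Mx2, dim without LPS, and of members near the top of the scale with LPS.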
